A study of Rattus norvegicus with 23 samples.

Results

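The keratin genes of simple and stratified epithelia examined here are Krt7, Krt8, Krt13, Krt14, Krt15, Krt17, Krt18, Krt19, Krt20 and Krt80. They were chosen by name as a gene family after the measured changes of Krt15 and Krt13 at pH 6.0, opposite in the 2 cell lines, had drawn attention to it, so the changes of these genes are given as a description and support nothing. Of the 10 genes, 8 were analysed among the 30452 genes of the count table, and 2 (Krt14 and Krt19) were not analysed here. Of these 8, 5 had enough counts to be tested, among 14777 genes tested in all, while Krt17, Krt18 and Krt20 fell below the filter on low counts.

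Keratins are the intermediate filament proteins of epithelial cells. A filament is built from pairs of an acidic type I keratin and a basic type II keratin, and it is anchored to neighbouring cells by desmosomes and to the basement membrane by hemidesmosomes. Keratins 8 and 18 form the basic pair of simple epithelia such as the kidney tubule, keratins 7, 19 and 20 accompany them in ducts and urinary epithelium, and keratins 13, 14, 15 and 17 belong to stratified epithelia.

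The samples came from 2 rat kidney lines, NRK-52E, labelled as epithelial, and NRK-49F, a line of fibroblasts, each grown alone. After 24 h in serum-free medium, the cells were held for 48 h at pH 7.4, the control, or at pH 6.0, set with hydrochloric acid. NRK-52E cells had n = 6 samples at each pH, and NRK-49F cells had n = 6 at pH 7.4 and n = 5 at pH 6.0. The labels put NRK-52E samples in sample groups 1 and 3 and NRK-49F samples in sample groups 4 and 6, each of which holds both pH values. Each line is a single established line, and the labels do not say whether samples were separate cultures, so p-values measure only the spread between these samples. Levels are given as FPM, the CPM of counted fragments, with library sizes scaled by the TMM method (trimmed means of log ratios between libraries). The depth of the libraries lay between 16657666 and 33690997 total counts for NRK-52E cells and between 16412564 and 34250535 for NRK-49F cells.

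The epithelial label of NRK-52E cells was checked against 13 epithelial marker genes in the table, of which 3 had enough counts to be tested. Cdh1 (E-cadherin) had a mean of 0.160 FPM and Epcam 0.00758 FPM in NRK-52E cells at pH 7.4, and Esrp1, a splicing factor of epithelial cells, was at 0 in every sample. The summed level of the 13 markers at pH 7.4 was 35.6 to 44.2 FPM in NRK-52E cells, most of it from the tight junction gene Marveld2, against 2.69 to 5.04 FPM in NRK-49F cells. Of the 3 tested, 2 (Marveld2 and Rab25) were higher in NRK-52E cells, beside 35% of all tested genes. The other 1, St14, was lower, beside 33.9% (0.754 against 1.90 FPM, log2 difference -1.30, adjusted p = 3.36e-05 in the edgeR test). Of the 11 tested fibroblast markers (12 in the table), 10 were lower and 1, the collagen gene Col3a1, higher in NRK-52E than in NRK-49F cells at pH 7.4 (edgeR test), beside 33.9% and 35% of all tested genes. Pdgfra, for example, was at 1.83 FPM in NRK-52E and 306 FPM in NRK-49F cells, and Col3a1 at 6145 and 1211 FPM. NRK-52E cells are therefore called by the name of the line below, since defining epithelial markers were at or near 0 in them. In bulk RNA, fewer cells of a type and less RNA per cell cannot be told apart.

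Krt8 and Krt18 encode the partner keratins of simple epithelia and lie next to each other on chromosome 7. They are shown together because Krt8 had between 3543 and 36236 counts in every sample and Krt18 at most 16 in any. The 175 bases that end 76 bases before the annotated start of each gene, from RefSeq on the build GRCr8, are Krt8 at chr7:135010415-135010589 on the minus strand and Krt18 at chr7:135035918-135036092 on the plus strand. Both are written 5′ to 3′ in the direction of the gene, with the matches of TATAAA and GGGCGG on either strand in capitals. Of the 10 genes, 3 were matched to a promoter there, the third being Krt20.
Krt8: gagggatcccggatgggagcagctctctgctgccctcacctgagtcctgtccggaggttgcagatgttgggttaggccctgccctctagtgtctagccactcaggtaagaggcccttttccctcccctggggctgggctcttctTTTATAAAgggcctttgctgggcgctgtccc
Krt18: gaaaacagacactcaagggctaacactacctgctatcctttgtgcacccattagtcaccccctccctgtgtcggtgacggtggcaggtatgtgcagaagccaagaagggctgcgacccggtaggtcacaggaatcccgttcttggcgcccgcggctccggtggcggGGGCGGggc
The Krt8 stretch held TATAAA at -104 and, overlapping it on the other strand, at -106, and the Krt18 stretch held GGGCGG at -84. Among 33469 stretches of the same length and place, 8.79% held TATAAA and 20.1% held GGGCGG on either strand. A match is a description of these letters and not of a bound site.

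Krt15 (ENSRNOG00000003899, chromosome 10), a type I keratin of the basal layer of stratified epithelia, fell at pH 6.0 in NRK-52E cells and rose in NRK-49F cells. In NRK-52E cells the 6 samples at pH 7.4 had 4.69, 5.88 and 6.34 FPM as the lowest, median and highest level, and the 6 at pH 6.0 had 0.444, 0.845 and 2.18 FPM. In NRK-49F cells the 6 samples at pH 7.4 had 6.36, 7.46 and 8.35 FPM, and those at pH 6.0 had 40.1, 27.8, 42.5, 46.9 and 33.9 FPM. The pH values did not overlap in either line. At pH 7.4 every NRK-49F sample lay above every NRK-52E sample, although the highest of the latter (6.34 FPM) and the lowest of the former (6.36 FPM) were close. Its log2 fold change at the lower pH was -2.27 in NRK-52E cells (SE 0.259, adjusted p = 6.74e-08), between means of 5.66 ± 0.603 and 1.12 ± 0.741 FPM (SD, n = 6 each). It was 2.34 in NRK-49F cells (SE 0.231, adjusted p = 4.97e-08, quasi-likelihood test of edgeR, adjusted by Benjamini-Hochberg over all tested genes), from 7.53 ± 0.726 (SD, n = 6) to 38.2 ± 7.49 FPM (SD, n = 5).

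Krt13 (ENSRNOG00000014070, chromosome 10), a type I keratin of the upper layers of mucosal stratified epithelia, had the same pattern. Its lowest, median and highest levels in NRK-52E cells were 0.709, 1.04 and 1.58 FPM at pH 7.4 and 0, 0.192 and 0.531 FPM at pH 6.0, with 13 to 32 and 0 to 18 counts per sample. The fibroblasts had 4.02, 5.50 and 9.33 FPM at pH 7.4, and their samples at pH 6.0 had 31.2, 21.4, 25.3, 29.7 and 16.2 FPM. No sample of a pH lay within the range of the other pH of its line. The log2 fold change was -2.07 in NRK-52E cells (SE 0.451, adjusted p = 0.000355 in the edgeR test) and 2.01 in NRK-49F cells (SE 0.302, adjusted p = 1.82e-05). The means were 1.13 ± 0.350 and 0.240 ± 0.244 FPM in NRK-52E and 6.19 ± 2.02 and 24.8 ± 6.16 FPM in NRK-49F cells (SD, n = 6, 6, 6 and 5).

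Krt13 and Krt15 are type I keratins of similar sequence on the same chromosome, and reads mapping to several places were counted, so they can share reads, which was not tested. The ratio of Krt13 to Krt15 counts per sample was 0.120 to 0.252 in NRK-52E cells at pH 7.4 and 0 to 0.476 at pH 6.0. In NRK-49F samples it was 0.487 to 1.25 and 0.476 to 0.778, respectively, and the ranges of the pH values overlapped in both lines.

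**Figure D1:**
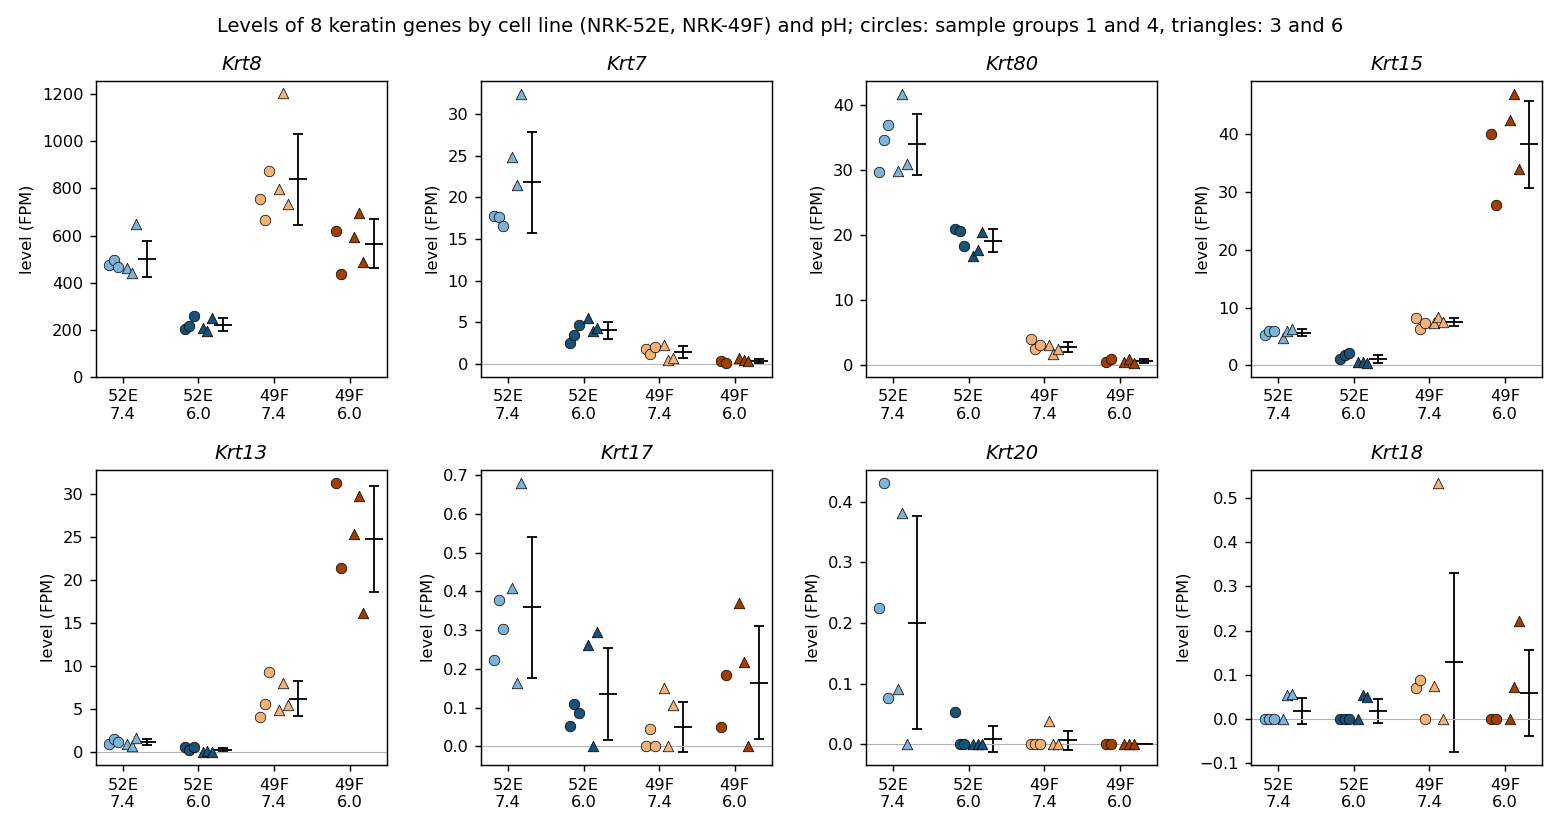
Level in FPM (linear axes from each gene's own range) of the 8 analysed keratin genes in every sample, by cell line and pH, with circles for sample groups 1 and 4, triangles for sample groups 3 and 6, and bars for the mean and SD (n = 6, 6, 6 and 5 from left to right). Krt15 and Krt13 fall to means of 1.12 and 0.240 FPM in NRK-52E cells and rise to 38.2 and 24.8 FPM in NRK-49F cells at pH 6.0, while Krt17, Krt18 and Krt20 stay below 1 FPM in every sample.

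Krt8 (ENSRNOG00000009779), the type II keratin of simple epithelia, fell in both lines. In NRK-52E cells the lowest, median and highest levels were 441, 472 and 650 FPM at pH 7.4 and 195, 212 and 260 FPM at pH 6.0. NRK-49F samples had 666, 777 and 1206 FPM at pH 7.4, and those at pH 6.0 had 619, 438, 592, 696 and 486 FPM. The pH values were apart in NRK-52E cells, whereas in NRK-49F cells the highest sample at pH 6.0 lay above the lowest at pH 7.4. The log2 fold change was -1.17 in NRK-52E cells (SE 0.137, adjusted p = 1.02e-07 in the edgeR test), between means of 499 ± 76.4 and 222 ± 26.7 FPM (SD, n = 6 each). It was -0.57 in NRK-49F cells (SE 0.143, adjusted p = 0.00409), from 839 ± 193 (SD, n = 6) to 566 ± 104 FPM (SD, n = 5). Within the sample groups of NRK-49F cells the value was -0.54 in group 4 (adjusted p = 0.178) and -0.64 in group 6 (adjusted p = 0.0778), so that the call rests on both groups together.

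Krt7 (ENSRNOG00000008057, chromosome 7), a type II keratin of simple ductal epithelia, also fell in both lines. The lowest, median and highest levels in NRK-52E cells were 16.5, 19.6 and 32.4 FPM at pH 7.4 and 2.49, 4.08 and 5.45 FPM at pH 6.0. NRK-49F samples had 0.466, 1.51 and 2.23 FPM at pH 7.4, and those at pH 6.0 had 0.306, 0.0609, 0.704, 0.433 and 0.389 FPM. NRK-52E samples did not overlap between the pH values and NRK-49F samples did. The log2 fold change was -2.42 in NRK-52E cells (SE 0.286, adjusted p = 1.10e-07 in the edgeR test) and -1.79 in NRK-49F cells (SE 0.410, adjusted p = 0.00183). The value in NRK-49F cells was -3.09 in sample group 4 (adjusted p = 0.0328) and -1.17 in sample group 6 (adjusted p = 0.264 in the edgeR test), where it did not pass the threshold. The 2 samples of group 4 at pH 6.0 had 6 and 1 counts, so the size of the fall there is near the limit of detection. Over all NRK-49F samples at pH 6.0, Krt7 had 1 to 19 counts.

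Krt80 (ENSRNOG00000025994, chromosome 7), a type II keratin found in many epithelia, fell in both lines without overlap. In NRK-52E cells the lowest, median and highest levels were 29.7, 32.7 and 41.6 FPM at pH 7.4 and 16.8, 19.4 and 20.9 FPM at pH 6.0. NRK-49F samples had 1.60, 2.68 and 4.02 FPM at pH 7.4, and those at pH 6.0 had 0.458, 0.853, 0.445, 0.830 and 0.222 FPM, or 4 to 23 counts. The samples of NRK-49F cells were thus low at both pH values beside those of NRK-52E cells. The log2 fold change was -0.83 in NRK-52E cells (SE 0.166, adjusted p = 0.000151 in the edgeR test) and -2.26 in NRK-49F cells (SE 0.250, adjusted p = 2.86e-07).

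The other 3 analysed genes were close to the limit of detection. A gene that is high in 1 condition alone can pass the filter through it, so counts over the 5 tested genes do not describe the whole family. Krt20 (ENSRNOG00000027139), a type I keratin of intestinal and urinary epithelium, had 0 to 8 counts in NRK-52E samples at pH 7.4 and 0 or 1 at pH 6.0. The pH values overlapped, and 3 of the samples at pH 7.4 had 2 counts or fewer, so no fold is given. NRK-49F cells had at most 1 count of Krt20 in any sample.

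Krt17 (ENSRNOG00000026371), a type I keratin induced in injured skin, had 3 to 12 counts in NRK-52E samples at pH 7.4 and 0 to 6 at pH 6.0, and 0 to 4 and 0 to 10 in NRK-49F cells. The groups overlapped in both lines. Krt18 (ENSRNOG00000047393), the partner of keratin 8, had at most 1 count in any NRK-52E sample at either pH. In NRK-49F cells it had 0 to 16 counts at pH 7.4, with the 16 in replicate A052, and 0 to 4 at pH 6.0. Keratins 8 and 18 are known for many processed copies in mammalian genomes, and whether reads of Krt18 were counted on such a copy was not tested.

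In NRK-52E cells, all 5 tested keratins were lower at pH 6.0 and 0 were higher, beside 36.6% of all tested genes called lower and 24.7% called higher. All 5 were also without overlap between the pH values, as were 23.2% of all tested genes in this direction. Their median log2 fold change was -2.07, against -0.12 over all tested genes. In NRK-49F cells 2 were higher (Krt15 and Krt13) and 3 lower (Krt8, Krt7 and Krt80), beside 14.5% and 14.4% of all tested genes. There the 2 higher genes and Krt80 did not overlap between the pH values, beside 10.4% of all tested genes for higher and 10.2% for lower levels. The median was -0.57 in NRK-49F cells, against 0.00 over all tested genes. Nothing about the keratins is read from these shares, since the same changes had drawn attention to the family.

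**Figure D2:**
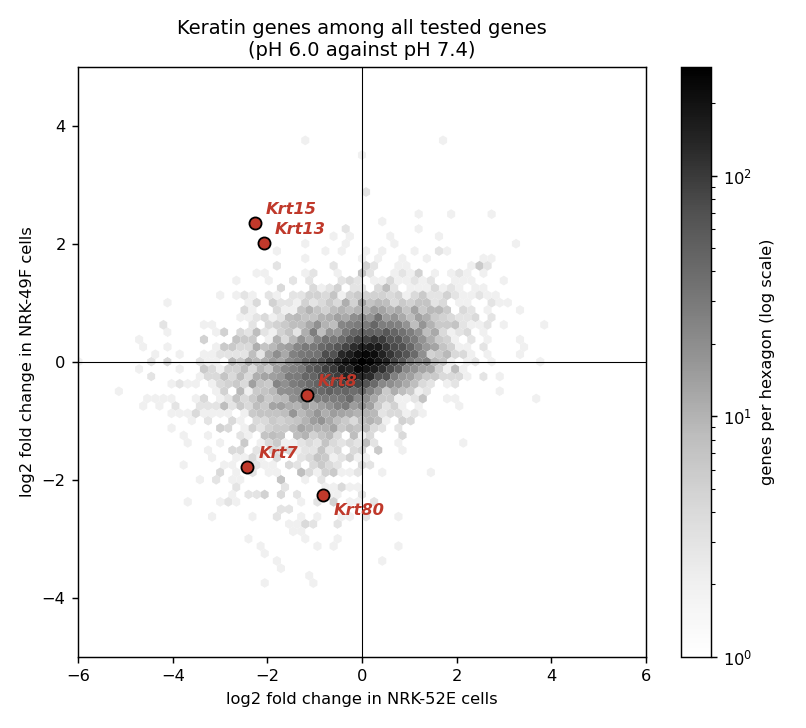
Log2 fold change at pH 6.0 in NRK-52E cells (x axis) against NRK-49F cells (y axis) for all 14777 tested genes, as grey hexagons whose shade gives the number of genes on a log scale, with the 5 tested keratins as labelled points. Krt15 (-2.27 and 2.34) and Krt13 (-2.07 and 2.01) lie in the upper left quadrant, and Krt7, Krt8 and Krt80 in the lower left.

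Whether the change differed between the lines was tested as its own contrast (NRK-52E minus NRK-49F). It was called for 4 of the 5 keratins, beside 41.4% of all tested genes in either direction. The difference was -4.61 for Krt15 (adjusted p = 4.82e-10) and -4.08 for Krt13 (adjusted p = 2.00e-06 in the edgeR test). It was smaller for Krt8, at -0.60 (adjusted p = 0.0163), which fell more in NRK-52E cells. Krt80 had the opposite sign, with a difference of 1.43 (adjusted p = 0.000538), since it fell more in NRK-49F cells. For Krt7 the difference of -0.64 (SE 0.521) did not pass the threshold (adjusted p = 0.352 in the edgeR test).

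At pH 7.4 the levels of the lines were compared directly, where cell line and sample group cannot be told apart. Krt80 and Krt7 were higher in NRK-52E cells, by log2 differences of 3.63 (adjusted p = 2.22e-14) and 3.95 (adjusted p = 5.10e-11), beside 35% of all tested genes called higher. Krt13 and Krt8 were lower in NRK-52E cells, by -2.46 (adjusted p = 4.94e-07) and -0.75 (adjusted p = 3.12e-05 in the edgeR test), beside 33.9% called lower. Krt8, a keratin of simple epithelia, was thus higher in the line of fibroblasts. Krt15 differed by -0.42 (SE 0.224), which did not pass the threshold (adjusted p = 0.103 in the edgeR test). In order of level, Krt15 ran from NRK-52E at pH 6.0 over both lines at pH 7.4, which were apart in every sample but did not pass the test against each other, to NRK-49F at pH 6.0.

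Within NRK-52E cells the log2 fold change of Krt15 was -1.61 in sample group 1 and -3.33 in sample group 3. At pH 6.0 Krt15 had a mean of 1.72 FPM (1.11 to 2.18) in group 1 and 0.524 FPM (0.444 to 0.576) in group 3, while at pH 7.4 the means were 5.68 and 5.64 FPM. Krt13 had a log2 fold change of -1.25 in group 1. At pH 6.0 the samples of group 3 had 0, 2 and 0 counts of Krt13, so only a bound is given there. Set against 3 counts in each of these libraries (0.157 FPM on average, counting error only), the level was at least 6.90-fold lower than the 1.08 FPM at pH 7.4. In groups 1 and 3 the changes were -2.18 and -2.45 for Krt7, -1.01 and -1.17 for Krt8, and -0.68 and -0.82 for Krt80. All 5 changes passed the threshold within each of these groups (edgeR's quasi-likelihood test). Over all genes, 4070 were called higher and 4389 lower of 13782 tested in group 1, and 3901 and 4255 of 13444 in group 3. The difference between the groups was not tested.

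In NRK-49F cells the rises of Krt15 (2.20 in group 4 and 2.40 in group 6) and Krt13 (2.08 and 1.95) and the fall of Krt80 (-2.27 and -2.17) were alike in the sample groups and passed the threshold in both. Krt7 and Krt8 did not do so in both, as given above. Of 13812 genes tested in each group, 653 were called higher and 548 lower in group 4, and 1088 and 1117 in group 6.

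**Figure D3:**
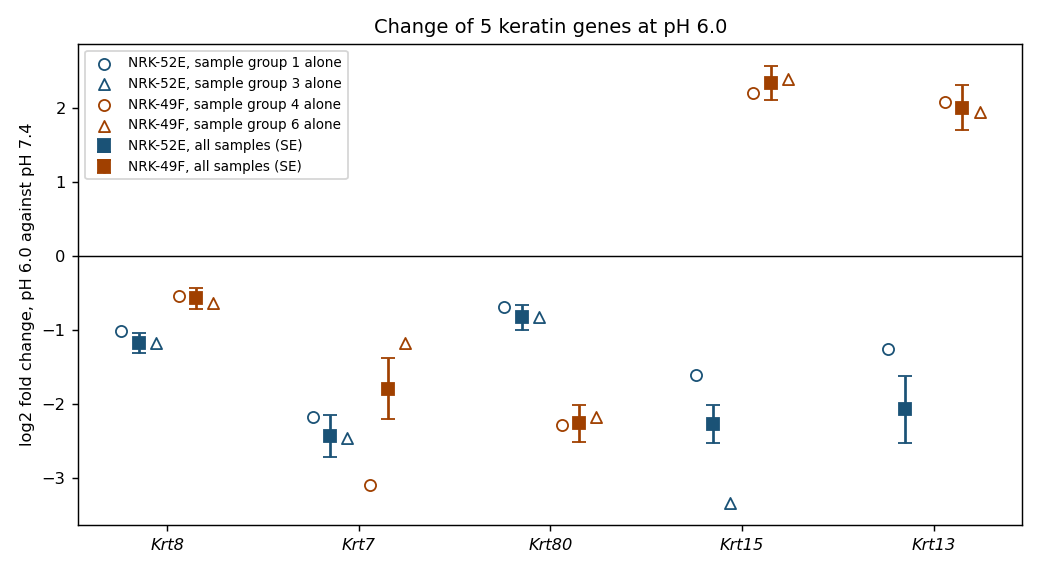
Log2 fold change of the 5 tested keratins at pH 6.0 against pH 7.4, with filled squares and bars for the value and SE over all samples (blue, NRK-52E; orange, NRK-49F) and open symbols for the values of single sample groups. For Krt13 in NRK-52E cells, group 1 is at -1.25 and no value is drawn for group 3, which had at most 2 counts per sample at pH 6.0, while groups 4 and 6 in NRK-49F cells are at 2.08 and 1.95.

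Markers of other cells moved with pH as well. The summed level of the 13 epithelial markers in NRK-52E cells was 35.6 to 44.2 FPM at pH 7.4 and 8.27 to 15.8 FPM at pH 6.0. That of the 12 fibroblast markers was 4983 to 8158 FPM and 1842 to 3119 FPM, most of it Col3a1 (means 6145 and 2401 FPM). In NRK-49F cells the sum of the fibroblast markers went from 10957 to 14032 FPM at pH 7.4 to 7595 to 10179 FPM at pH 6.0. The epithelial sum had medians of 3.36 and 3.34 FPM. Of the 11 tested fibroblast markers, 3 were called lower there and 0 higher, beside 14.4% and 14.5% of all tested genes. Most of the fibroblast sum was Col1a1 (means 5874 and 3768 FPM) and Col1a2 (4474 and 3327 FPM), which were not called (adjusted p = 0.183 and 0.667 in the edgeR test). In NRK-52E cells all 3 tested epithelial markers and 10 of the 11 tested fibroblast markers were called lower, beside 36.6% of all tested genes. Pdgfra, Vcam1 and Lum had at most 2, 3 and 0 counts there at pH 6.0, and 15 to 169, 5 to 143 and 0 to 84 at pH 7.4. Dcn passed the filter through NRK-49F cells, had 0 counts in all NRK-52E samples and could not be called there. Nothing about fibroblast markers as a set is read from this count. The part of the markers in the changes of the keratins was not tested.

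In NRK-52E cells at pH 7.4 Pdgfra was highest in replicate A021 (4.73 FPM), and without this sample the changes in NRK-52E cells were -2.29 for Krt15 and -2.14 for Krt13, as large as with it. The epithelial sum of NRK-49F cells was highest in replicate A051, and without it the change of Krt7 in NRK-49F cells was -1.59.

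Cornification markers, which mark the last steps of stratified epithelia, were measured because Krt13 and Krt15 belong to such epithelia. Of 10 in the table, 2 had enough counts. Ivl (involucrin), Sprr1b and Dsg3 were at 0 in every sample. The summed level went from 27.2 to 38.5 FPM at pH 7.4 to 10.6 to 22.8 FPM at pH 6.0 in NRK-52E cells, most of it Tgm1, a transglutaminase that crosslinks the cornified envelope (28.8 and 14.7 FPM), which fell (log2 fold change -0.97, adjusted p = 0.00358 in the edgeR test). In NRK-49F cells, where Krt15 and Krt13 rose, the sum was 1.83 to 3.98 FPM at pH 7.4 and 3.03 to 4.69 FPM at pH 6.0. There 0 of the 2 tested markers were called, beside 14.5% of all tested genes called higher and 14.4% lower. Their means went from 1.69 to 2.46 FPM for Sbsn and from 0.525 to 0.445 FPM for Tgm1. With 2 genes, nothing about cornification is read from this count.

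Of 40 other keratin genes in the table, 5 had enough counts to be tested. In NRK-52E cells 0 were higher and 2 lower, beside 24.7% and 36.6% of all tested genes. These were Krt12 (-2.68, adjusted p = 0.000225), a keratin of the cornea, and Krt75 (-1.28, adjusted p = 0.0433 in the edgeR test), a keratin of the hair follicle. Krt12 had 7 to 27 counts in NRK-52E samples at pH 7.4, 0 to 4 at pH 6.0 and 0 in all NRK-49F samples. It thus passed the filter through 1 condition, where only a fall could be seen, and its fold is near the limit of detection. Krt75 had 9 to 54 and 0 to 44 counts in NRK-52E samples, and the pH values overlapped. Krt10, a keratin of the upper epidermis, had 7.39 ± 0.628 and 4.81 ± 1.56 FPM (SD, n = 6 each) at the respective pH of NRK-52E cells and did not pass the threshold (-0.62, adjusted p = 0.0751 in the edgeR test), while NRK-49F cells had 0.0828 and 0.0528 FPM. In NRK-49F cells 1 was called, beside 14.5% of all tested genes higher and 14.4% lower. This was Krt79, which rose (1.35, adjusted p = 0.0124 in the edgeR test) from 0.534 ± 0.267 (SD, n = 6) to 1.36 ± 0.350 FPM (SD, n = 5). Krt222 reached 1.05 FPM in NRK-52E cells at pH 6.0, from 0.757 FPM at pH 7.4, and was not called in either line.

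Of 18 genes that anchor keratins in desmosomes, hemidesmosomes or by linker proteins, 11 were tested. The median change was -0.60 in NRK-52E cells, with 0 called higher and 9 lower, beside 24.7% and 36.6% of all tested genes and their median of -0.12. It was -0.39 in NRK-49F cells, with 2 called higher and 4 lower, beside 14.5% and 14.4% and a median of 0.00. Dsp (desmoplakin), which ties keratin filaments to the desmosome, fell in NRK-52E cells (5.34 ± 0.770 against 0.498 ± 0.230 FPM, SD, n = 6 each; log2 fold change -3.39, adjusted p = 1.22e-11 in the edgeR test). In NRK-49F cells Dsp was at 56.7 and 59.9 FPM (log2 fold change 0.08, adjusted p = 0.763 in the edgeR test). Plec (plectin), a linker between intermediate filaments and other structures, fell in both lines, by 1.31 and 0.86 on the log2 scale, from 326 to 131 FPM and from 838 to 461 FPM. Jup (plakoglobin) fell by 0.43 and 0.86. Itga6, a subunit of the hemidesmosome's integrin, fell by 1.75 in NRK-52E cells and rose by 0.64 in NRK-49F cells (adjusted p = 7.58e-08 and 0.0184 in the edgeR test).

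Of 16 other intermediate filament genes, 11 were tested. NRK-52E cells had 4 called higher and 6 lower (24.7% and 36.6% over all tested genes), with a median change of -0.22 against -0.12 over all. NRK-49F cells had 5 higher and 1 lower (14.5% and 14.4%), with a median of 0.33 against 0.00. Vim (vimentin), the filament of mesenchymal cells, fell in NRK-52E cells (739 ± 88.2 against 388 ± 56.4 FPM, SD, n = 6 each; -0.93, adjusted p = 2.75e-07 in the edgeR test). In NRK-49F cells it was at 7617 and 6624 FPM, a change that did not pass the threshold (-0.20, adjusted p = 0.230 in the edgeR test). Des (desmin), the filament of muscle, had the largest rise of this list in NRK-52E cells, from 0.985 to 19.8 FPM (4.34, adjusted p = 4.84e-13 in the edgeR test). Prph (peripherin), a filament of neurons, had the largest fall there, from 22.7 to 4.27 FPM (-2.40). In NRK-49F cells the largest rise of the list was that of Bfsp2, a lens filament gene (1.35, from 1.68 to 4.30 FPM), and the called fall was that of Sync (syncoilin; -0.54).

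Of 16 transcription factors that act on keratin genes or on epithelial identity, 9 were tested. NRK-52E cells had 3 called higher and 4 lower, and NRK-49F cells 1 higher and 2 lower. The shares over all tested genes were 24.7% and 36.6% in NRK-52E and 14.5% and 14.4% in NRK-49F cells, and the medians of the list were -0.76 and -0.14. Tfap2a (AP-2 alpha) fell in NRK-52E cells (-0.95, adjusted p = 4.08e-05) and rose in NRK-49F cells (0.67, adjusted p = 0.00472 in the edgeR test), from 37.8 to 19.6 FPM and from 58.2 to 93.0 FPM. In NRK-52E cells Grhl1, a grainyhead factor of epithelia, had the largest rise of the list (1.47, from 7.13 to 19.9 FPM). Snai2, a repressor of epithelial genes, had the largest fall there (-1.62, from 1.48 to 0.483 FPM). The other called rises in NRK-52E cells were of further such repressors, Snai1 (1.00, from 5.75 to 11.5 FPM) and Zeb1 (0.44). Beside Tfap2a, the other called falls were of Klf5 (-0.86, from 209 to 115 FPM) and Ovol1 (-0.76), factors of epithelia. Factors and repressors of epithelial genes thus each moved in both directions. In NRK-49F cells Klf4, a factor of epithelial differentiation, had the largest fall (-0.74, from 208 to 124 FPM). Tp63, a factor of basal cells of stratified epithelia, was among the 7 that had too few counts to be tested.

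**Figure D4:**
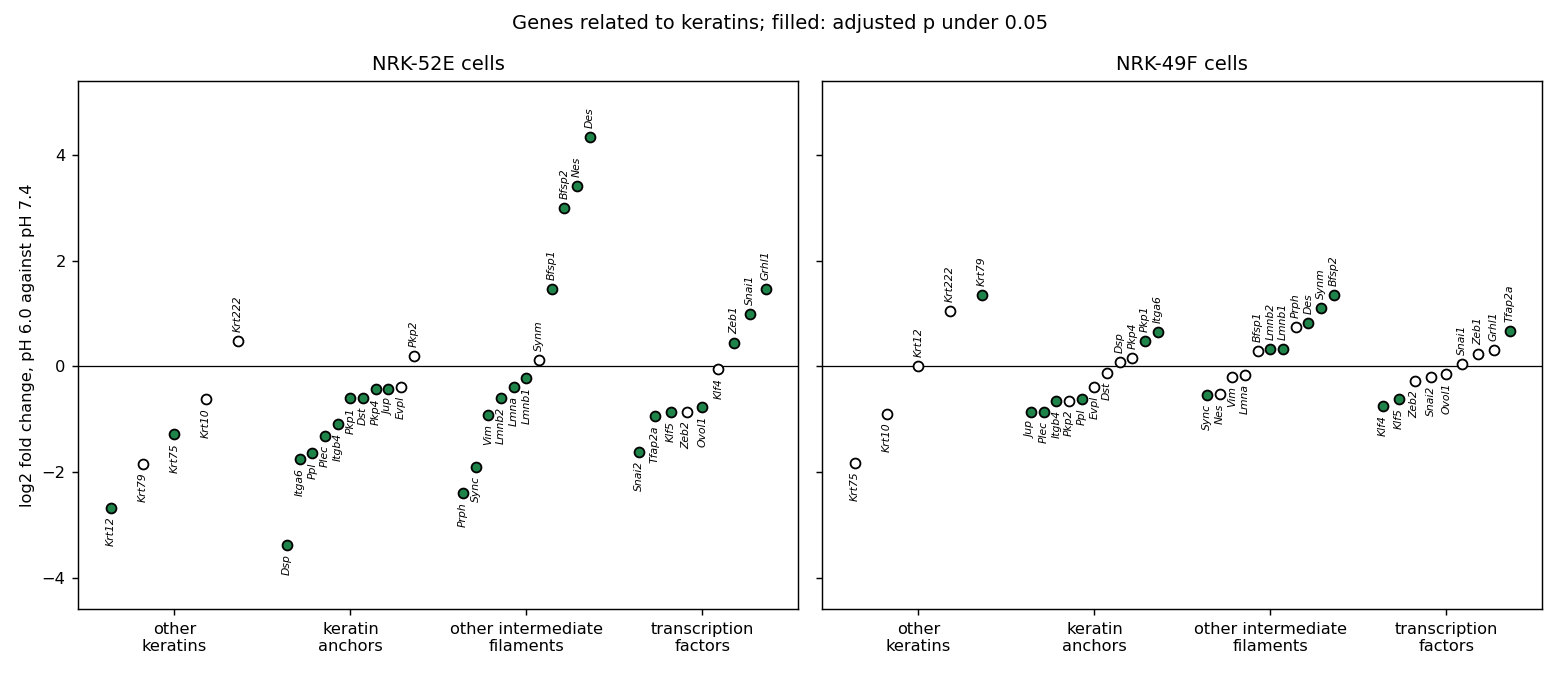
Log2 fold change at pH 6.0 against pH 7.4 of the tested genes of 4 lists related to keratins, in NRK-52E (left) and NRK-49F cells (right), with filled circles for an adjusted p under 0.05 in the edgeR test. Among the anchors, Dsp is lowest in NRK-52E cells at -3.39, and among the other filaments Des is highest at 4.34.

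The genes whose 4 condition means were most like those of Krt8 and Krt15 were found by the Euclidean distance between means of log2(FPM + 0.5), centred on each gene. The search covered the tested genes with a named symbol, leaving out provisional symbols such as LOC. For Krt8 these were Dzip1 (distance 0.0721), Cxxc5 (0.0826) and Anxa2 (0.0974). Anxa2 (annexin A2), for example, had 1104, 531, 1840 and 1327 FPM in NRK-52E cells at pH 7.4 and 6.0 and in NRK-49F cells at pH 7.4 and 6.0, beside 499, 222, 839 and 566 FPM for Krt8. For Krt15 the nearest were Irag1 (0.822), Lbp (0.887) and Gja5 (0.985). This distance grows with the size of the changes, so the distances for Krt8 and Krt15 are not set against each other. Irag1, the nearest, had 1.49, 0.314, 4.28 and 11.6 FPM in the same order. Gja5 (connexin 40) had 7.12, 0.496, 5.91 and 17.6 FPM, with both directions of change with pH as for Krt15 (5.66, 1.12, 7.53 and 38.2 FPM). At pH 7.4 its mean was higher in NRK-52E cells, unlike that of Krt15.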

How the data were processed

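The deposited values are raw counts per gene of poly(A) RNA from 23 rat samples. The authors mapped read pairs with HISAT2 2.1.0 and counted them on exons with featureCounts, which was set to count multi-mapping reads, and did not normalize them. The study's methods name the rat build rn7 and the submitters' processing notes rn6, and the strand setting is not given in the sources used here. Another 13 per-sample columns could not be matched to a label and were not used. Samples were grouped by the line and pH of their labels.

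All 23 samples were fitted in 1 model with 4 conditions (R 4.3.3, edgeR 4.0.16). Genes were kept by filterByExpr (minimum count 10, minimum total 15) and libraries scaled by TMM. Quasi-likelihood tests were adjusted by Benjamini-Hochberg over all 14777 tested genes (threshold 0.05), and SE is the absolute log2 fold change over the square root of F. FPM are edgeR's cpm of the TMM-scaled library. The detection limit of 3 counts covers counting error only. Lists of anchors, filaments, factors and markers were written from general knowledge. The members and lists were chosen with earlier results of these data known. All members are named. Other keratins are named at a mean of 1 FPM or more in a condition or, for Krt12, because it was 1 of only 2 that fell, chosen after its values were seen. Of each further list, the largest called rise and fall in each line and Vim, Dsp, Jup and Plec are named. All factors called in NRK-52E cells are named too, chosen after their values were seen. For Krt8 and Krt15 the 3 nearest genes with a named symbol are given. Marker genes named in the check of the labels were picked for their role, and Tgm1 and Marveld2 for their share of a sum. Sbsn, Rab25 and St14 are named as the other tested markers of their lists. The test was tried on simulated data. Alternatives changed the scaling, the test (DESeq2 1.42.0), the filter, the samples and the FPM. Python 3.11.15 with matplotlib 3.10.9 drew the figures.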

Additional observations from a re-analysis of the deposited data

Results flagged for a closer look

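Of 31 groups of samples examined for a sample far from the others, 4 had one. The cutoff gives about 1 in 20 by chance only for normally distributed levels. Sparse counts are not so distributed, so nothing is read from this number. Krt8 in replicate A035 of NRK-52E cells at pH 7.4 had 650 FPM, while the other samples had 441 to 497 FPM, a gap of 0.730 of the range. Krt18 in replicate A052 of NRK-49F cells at pH 7.4 had 16 counts (0.533 FPM, gap 0.833 of the range), while the others had up to 0.0889 FPM. For Krt20, replicate A024 of NRK-52E cells at pH 6.0 and replicate A051 of NRK-49F cells at pH 7.4 each had 1 count and the other samples of their group 0, so the gap was the whole range (1.0).

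The test of the difference between the lines (change in NRK-52E minus change in NRK-49F, log2) picked out Krt15 at -4.61, Krt13 at -4.08, Krt80 at 1.43 and Krt8 at -0.60.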

How the results depend on the processing

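Of 605 changes of single keratins recomputed under another setting, 602 kept their direction and their side of the threshold, 3 kept the direction but no longer passed it, and 0 reversed. These 3 were Krt8 in sample groups 4 and 6 of NRK-49F cells and Krt7 in sample group 6, which hold fewer samples. In sample group 6 alone, the number of keratins lower in NRK-49F cells was 1, against 3. Without the filter on low counts, 4 keratins were higher in NRK-52E than in NRK-49F cells at pH 7.4, against 2, since Krt17 and Krt20 were then tested. Krt20 then also fell in NRK-52E cells (adjusted p = 0.00262 in the edgeR test), at 0 to 8 counts per sample. Krt18, with at most 16 counts in any sample, was then lower in NRK-52E than in NRK-49F cells at pH 7.4 (-2.77, adjusted p = 0.0382 in the edgeR test). The change of Krt17, with at most 12 counts, then differed between the lines (-3.02, adjusted p = 0.0408 in the edgeR test). With each of the 23 samples left out in turn no call was lost, and the change of Krt13 in NRK-52E cells ran from -2.59 to -1.82 and that of Krt15 from -2.64 to -2.10. Leaving out both A021 and A051, chosen after seeing the data, gave -2.14 and -2.29. Levels moved by less than 1 SD with other FPM in 64 of 64 cases. Over all tested genes, the median change in NRK-52E cells was -0.12, and 0.00 with each line filtered and fitted alone. No paired analysis was possible because replicate codes are not shared between the pH values. With the sample group as a block, the same 5 keratins were called in each line. Krt17, Krt18 and Krt20 were close to the limit of detection, and differences in them below 3 counts per sample could not be detected.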
